A study of Homo sapiens with 240 samples.

Results

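EIF2AK1, EIF2AK2, EIF2AK3 and EIF2AK4 encode the kinases that phosphorylate the alpha subunit of translation initiation factor eIF2, PPP1R15A and PPP1R15B encode the subunits that direct protein phosphatase 1 to remove that phosphate, and OMA1 encodes a protease of the mitochondrial inner membrane. These 7 genes were taken by symbol from the 27234 genes of each of 5 deposited expression tables. All 7 were above the filter on low values in every table (3 or more libraries with a TPM of 1 or above). TPM values are read counts scaled by transcript length and by the library's sum of such length-scaled counts. Levels of different genes can therefore be set side by side within a library.

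Phosphorylated eIF2 alpha lowers general protein synthesis while the mRNA of the transcription factor ATF4 is translated more, a state known as the integrated stress response. Each kinase senses a different input: EIF2AK1 (HRI) heme shortage and mitochondrial stress, EIF2AK2 (PKR) double-stranded RNA, EIF2AK3 (PERK) unfolded proteins in the endoplasmic reticulum, and EIF2AK4 (GCN2) uncharged tRNA. OMA1 is activated when the mitochondrial membrane potential falls, cleaves OPA1 and DELE1, and cleaved DELE1 activates EIF2AK1. PPP1R15A (GADD34) is a stress-induced gene that closes the loop by dephosphorylation of eIF2 alpha, and PPP1R15B (CReP) is its constitutive counterpart. The activity of all 7 proteins is set largely after transcription, and the data here are mRNA levels.

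The 240 libraries of polyadenylated RNA came from HEK 293T, a human embryonic kidney cell line carrying SV40 large T antigen, kept in DMEM medium containing 10% serum, and fell into 80 groups of 3. AMPK is the kinase activated by low cellular energy. AMPK WT and AMPK KO cells received DMSO (0 h) or 991 (a direct AMPK activator), CCCP (a protonophore that uncouples mitochondria), phenformin (a biguanide inhibitor of respiratory complex I, labelled Phen) or rotenone (a complex I inhibitor, labelled Rot) for 2, 4, 8 and 16 h. The other arms received DMSO or 991: cells with WT FNIP1 or with FNIP1 SA5, in the study a mutant of 5 AMPK sites of this folliculin partner (2 to 16 h), TFEB+TFE3 WT and TFEB+TFE3 KO cells lacking these lysosomal transcription factors (called DKO here), ESRRA WT and ESRRA KO cells lacking estrogen-related receptor alpha, and siControl and siPGC1a cells with knockdown of the coactivator PGC1a (2 to 24 h). Doses, the number of clones behind each knockout and the siRNA timing are not given in the labels. DMSO was sampled at 0 h only, so compound and time in culture cannot be told apart. The labels do not say whether the 3 replicates were separate cultures, so p-values measure the spread between these libraries, which may be technical.

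The libraries' depth is unknown, since TPM keep no read counts, and their TPM sums ran from 396341 to 449208. In the FNIP1 table, SA5 DMSO replicate 1 and SA5 991 8 h replicate 1 stood apart from their groups, with FNIP1 itself at 5.474 and 45.05 TPM against 164 to 195 TPM in the other 13 SA5 libraries. FNIP1 results are therefore given with and without both. In 6 AMPK WT libraries the title's wording goes against the library code in the title and the treatment or time label. For 3 of them the wording gives 991 where the code and label give Phen at 2 h, and for 3 it gives 16 h where they give CCCP at 4 h, and all 6 were grouped by code and label. Of the AMPK catalytic subunit genes, PRKAA1 was at 2.15 to 3.73 TPM in AMPK KO and at 6.03 to 10.6 TPM in AMPK WT libraries, without overlap, whereas PRKAA2, at 2.55 to 4.87 and 3.77 to 7.40 TPM, overlapped. Both TFEB (1.32 to 2.72 TPM in DKO and 1.24 to 3.56 TPM in the WT arm) and TFE3 (7.18 to 10.2 and 8.82 to 14.01 TPM) overlapped between their arms. ESRRA was at 4.44 to 8.46 TPM in ESRRA KO against 8.01 to 12.7 TPM, and PPARGC1A (PGC1a) at 0.015 to 0.107 TPM in siPGC1a against 0.254 to 0.484 TPM in siControl. Transcript levels do not test a knockout that leaves the RNA in place. FNIP1 was at 146 to 241 TPM in both ESRRA arms and at 129 to 290 TPM in both siRNA arms, against 2.08 to 7.17 TPM in the AMPK and TFEB+TFE3 tables. The labels give no FNIP1 construct for those arms, and its part in differences between tables was not tested. HEK 293T markers were present for VIM (174 to 745 TPM), KRT8 and KRT18, while PAX2 (0.134 to 1.76 TPM) and PAX8 (0 to 0.118 TPM) were low. NEFM, another such marker, varied from 0 to 21.2 TPM between libraries. The 10 markers of blood, vessel, fibroblast, skin and liver cells summed to 2.23 to 8.71 TPM per library, mostly COL1A1. In bulk RNA, fewer cells with a transcript and less of it per cell cannot be told apart.

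On GRCh38, EIF2AK1 lies on chromosome 7 (6022247 to 6059229, minus strand), EIF2AK2 on chromosome 2 (37105141 to 37147822, minus strand) and EIF2AK3 on chromosome 2 (88556740 to 88624929, minus strand). EIF2AK4 lies on chromosome 15 (39934124 to 40035596, plus strand), PPP1R15A on chromosome 19 (48872392 to 48876062, plus strand), PPP1R15B on chromosome 1 (204403364 to 204411817, minus strand) and OMA1 on chromosome 1 (58480719 to 58546799, minus strand). Exons of EIF2AK1 overlap those of AIMP2 on the opposite strand, a gene listed at 41.6 to 85.1 TPM. Exons of EIF2AK2 overlap GPATCH11 (2.54 to 17.5 TPM) and a pseudogene, those of EIF2AK3 overlap 2 antisense RNAs, and those of OMA1 overlap DAB1 on the same strand (0 to 0.854 TPM). Whether strand was used in counting is not given in the sources used here, so reads of these gene pairs cannot be told apart. EIF2AK4, PPP1R15A and PPP1R15B have no exon overlap in the annotation.

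The promoters of the phosphatase subunits are shown because these 2 genes of one function moved differently in the data. The 250 bases before each RefSeq start (GRCh38.p14, 5′ to 3′ on the gene's strand) were searched on both strands for the C/EBP-ATF element TGATGNAA, bound by ATF4 with C/EBP partners, for the cyclic AMP response element TGACGTCA and for the E-box CACGTG. Capitals mark a match. For PPP1R15A the last 29 of these bases are not printed, since the transcript start given above lies that far upstream of the RefSeq start.
PPP1R15A, chr19:48872171-48872391, plus strand: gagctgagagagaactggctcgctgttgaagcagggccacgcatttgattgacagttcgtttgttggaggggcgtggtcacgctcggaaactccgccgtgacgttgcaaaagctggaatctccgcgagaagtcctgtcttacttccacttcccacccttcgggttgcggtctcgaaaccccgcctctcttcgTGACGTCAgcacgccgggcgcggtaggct
PPP1R15B, chr1:204411818-204412067, minus strand: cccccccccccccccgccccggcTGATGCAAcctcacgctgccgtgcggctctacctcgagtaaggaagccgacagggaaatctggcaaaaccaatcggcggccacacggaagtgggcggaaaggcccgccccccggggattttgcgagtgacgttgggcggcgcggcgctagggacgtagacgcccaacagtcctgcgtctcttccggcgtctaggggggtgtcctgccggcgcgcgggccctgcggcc
PPP1R15A held TGACGTCA at positions -58 to -51 from the RefSeq start, which are -29 to -22 from the end of the printed run. PPP1R15B held TGATGCAA, a form of TGATGNAA, at -227 to -220 from its start. Of 27305 RefSeq promoters, searched over the same 250 bases, 3.19% held TGATGNAA, 1.77% TGACGTCA and 6.49% CACGTG. The only other match among the 6 genes with a promoter entry was CACGTG in EIF2AK2, whose RefSeq start lies 9158 bases upstream of the transcript start given above. These matches describe letters in a window and say nothing of binding.

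EIF2AK1 was the most abundant of the kinases and EIF2AK3 the least in all 10 arms under DMSO. In AMPK WT cells, EIF2AK1 was at 48.5, 47.6 and 47.7 TPM (mean 47.9 ± 0.47, SD, n = 3). PPP1R15A (17.4 ± 3.7 TPM), PPP1R15B (16.7 ± 0.65 TPM) and OMA1 (16.4 ± 0.97 TPM) followed, and their libraries overlapped. EIF2AK2 (7.68 ± 0.66 TPM) and EIF2AK4 (7.09 ± 0.82 TPM) overlapped in turn, and EIF2AK3 (3.66 ± 0.20 TPM) was below both. The large SD of PPP1R15A came from replicate 1, at 21.6 TPM against 14.7 and 15.7 TPM. In DKO cells, PPP1R15A (50.2, 52.8 and 50 TPM) was level with EIF2AK1 (50.5, 50.6 and 49.5 TPM). Tables were normalized separately, so levels of different tables are set side by side without a test.

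**Figure D1:**
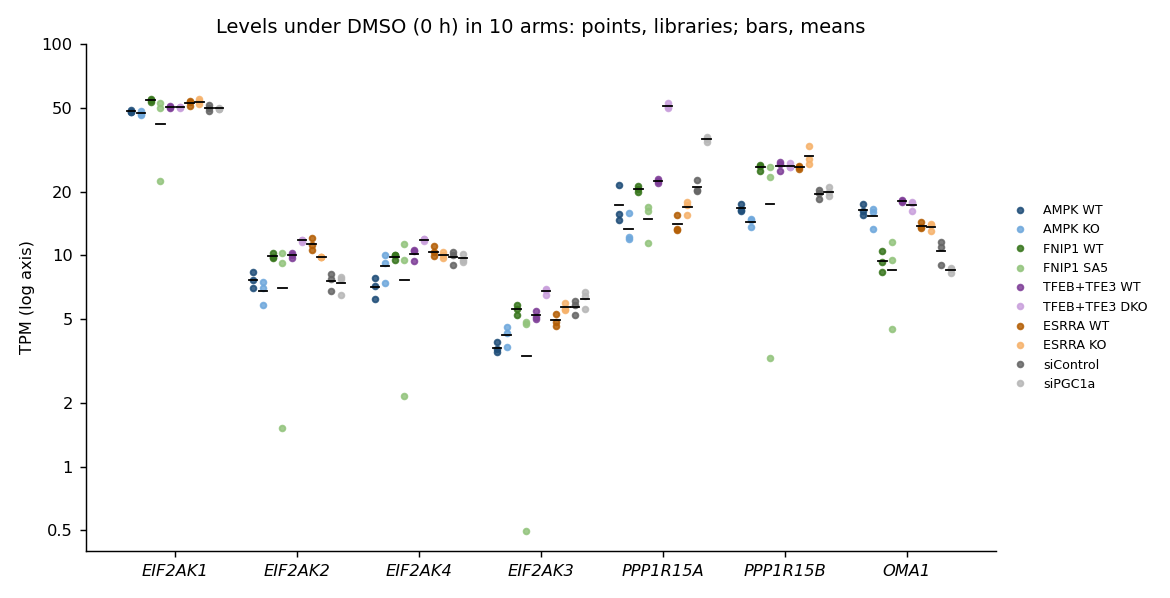
TPM of the 7 genes under DMSO at 0 h in the 10 arms, on a log axis; points are libraries and bars are means of 3. EIF2AK1 sits near 50 TPM in 9 arms, PPP1R15A is near 51 TPM in DKO and 35.4 TPM in siPGC1a cells, and the low SA5 points are replicate 1.

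Each treated group was compared with DMSO of its own arm by limma on log2(TPM + 1). Differences below are on that scale with the standard error of the fit, a test passes at an adjusted p under 0.05 (Benjamini-Hochberg over all genes of the table), and "rose" and "fell" are used only for tests that passed. Because large parts of the transcriptome moved, each count of passing tests is read against the share of all gene tests that passed in the same comparison. Counts under median-ratio scaling, given beside some of these, have no share of their own. In AMPK WT cells, 24 of 28 tests of the 7 genes passed with phenformin, all upward, against 68.3% of all gene tests. With CCCP, 25 of 28 passed, all upward, against 64.1%. With rotenone, 23 passed (20 up, 3 down) against 60.6%, and with 991, 17 (16 up, 1 down; 13 up and 3 down under median-ratio scaling) against 49%. In AMPK KO cells, 27 of 28 passed with phenformin (69.3% of all gene tests), 25 with CCCP (62.7%), 22 with rotenone (58.4%) and 15 with 991 (42.7%). The 7 genes passed somewhat more often than all genes with CCCP, phenformin and rotenone, and the counts alone say little about them, so sizes and directions are described gene by gene.

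With 991 elsewhere, 25 of 35 tests passed in TFEB+TFE3 WT cells (46.5% of all gene tests; 21 up and 4 down, or 14 and 6 under median-ratio scaling) and 16 of 35 in DKO cells (37.1%; 11 up and 5 down, or 5 and 7). In ESRRA WT cells 21 of 35 passed (36.9%; 17 up and 4 down, or 16 and 7) and in ESRRA KO cells 21 of 35 (39.1%; 15 up and 6 down, or 9 and 7). In siControl cells 24 of 35 passed (42.1%; 23 up and 1 down, or 15 and 4) and in siPGC1a cells 20 of 35 (40.9%; 18 up and 2 down, or 10 and 4). In the FNIP1 table, 3 of 28 passed in WT FNIP1 cells (14.4%) and 8 of 28 in SA5 cells (30.8%; 8 up, or 6 up and 2 down). Without the 2 SA5 libraries that stood apart, 13 of 28 passed in WT FNIP1 cells against 48.6% of all gene tests, and 14 of 28 in SA5 cells against 40.9%. Median-ratio scaling shifted the median of all genes by up to 0.161 (log2) downward in the siRNA table, 0.126 in the TFEB+TFE3 table and 0.352 in the FNIP1 table, which moved small upward differences there below the threshold.

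EIF2AK3, the endoplasmic reticulum kinase PERK, rose with every mitochondrial inhibitor and most with phenformin at 16 h. In AMPK WT cells it was at 3.60, 3.498 and 3.88 TPM under DMSO and at 10.8, 11.1 and 11.2 TPM after 16 h of phenformin. The groups were far apart, a 3.01-fold higher mean TPM and a log2 difference of 1.37 ± 0.06 (limma adjusted p = 4.6e-35). The log2 difference was 0.35, 0.58 and 0.65 at 2, 4 and 8 h, so the step from 8 to 16 h was the largest of the course. AMPK KO cells went from 3.68, 4.302 and 4.61 TPM to 11.1, 10.6 and 10.8 TPM at 16 h, also without overlap (1.19 ± 0.06, adjusted p = 1.8e-31). The KO minus WT difference of the phenformin responses was -0.17 ± 0.08 at 16 h and did not pass (adjusted p = 0.13).

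CCCP raised EIF2AK3 in AMPK WT cells by 0.32 at 2 h, 0.59 at 4 h, 0.35 at 8 h and 0.75 ± 0.06 at 16 h (adjusted p = 8.5e-20, 6.79, 6.99 and 6.65 TPM). CCCP raised it in AMPK KO cells by 0.80 ± 0.06 at 16 h (adjusted p = 2e-21), a size close to that in WT cells. With 991 in AMPK WT cells it rose to a plateau: 0.40 at 4 h, 0.49 at 8 h and 0.50 ± 0.06 at 16 h (adjusted p = 2.4e-12), with 5.52, 5.64 and 5.57 TPM all above DMSO. The 991 differences in AMPK KO cells were smaller, 0.22, 0.21 and 0.35 at 4, 8 and 16 h, and all passed, though the one at 4 h did not without replicate 1 (0.11, adjusted p = 0.11). The difference between the arms passed at 8 h (-0.28 ± 0.08, adjusted p = 0.0063) and did not without replicate 2 (adjusted p = 0.1) or replicate 3 (adjusted p = 0.13). Rotenone gave a flat course in AMPK WT cells, between 0.25 and 0.32 at the 4 times. The rotenone difference in AMPK KO cells was 0.16 at 16 h and was lost without replicate 1 (0.05, adjusted p = 0.44).

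In the other tables the 991 differences of EIF2AK3 were 0.04 to 0.44 at 16 h, leaving out the SA5 arm, whose DMSO replicate 1 was at 0.495 TPM. The largest was in siControl cells, from 5.84, 6.07 and 5.23 TPM to 7.58, 8.49 and 8.22 TPM (0.44 ± 0.09, adjusted p = 9.4e-05). In ESRRA WT cells it rose at 4, 8, 16 and 24 h, by 0.25 to 0.32, and in ESRRA KO cells it passed at 8 h only (0.16, adjusted p = 0.041), although no difference between these arms passed. Most of these smaller calls in the TFEB+TFE3, siRNA and ESRRA tables were lost under another scaling. Across the 10 arms, EIF2AK3 rose in 5 at 4 h and in 6 each at 8 and 16 h, where the median share of all genes called upward with 991 was 26.6%, 31% and 37.4%. No 991 test of EIF2AK3 passed in either FNIP1 arm when the 2 SA5 libraries were left out.

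EIF2AK4, the amino acid sensor GCN2, rose with all 4 compounds. In AMPK WT cells DMSO libraries were at 6.23, 7.86 and 7.19 TPM. At 16 h they were at 13.1, 13.1 and 12.6 TPM with 991 (0.79 ± 0.08, adjusted p = 8.6e-15) and at 15.4, 15.7 and 15.3 TPM with phenformin (1.03 ± 0.08, adjusted p = 6.5e-21). CCCP (0.75) and rotenone (0.78) lay beside 991. No treated library of these 4 groups overlapped DMSO, and the mean TPM was 1.78 to 2.18 times that of DMSO.

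The time course of EIF2AK4 differed by compound. CCCP, phenformin and rotenone had raised it at 2 h in AMPK WT cells (0.58, 0.48 and 0.51), whereas 991 gave 0.21 at 2 h and 0.26 at 4 h, with libraries overlapping DMSO. Both early 991 calls were lost without replicate 3 (0.17, adjusted p = 0.5, and 0.23, adjusted p = 0.13). At 8 h the 991 difference was 0.65 ± 0.08 (adjusted p = 1.2e-11). At 16 h the differences in AMPK KO cells were 0.57 with 991, 0.46 with CCCP, 0.76 with phenformin and 0.64 with rotenone, all passing. DMSO libraries there were at 7.44, 10.0 and 9.17 TPM. After 16 h of CCCP the arms overlapped, at 12.7, 12.4 and 12.5 TPM in KO against 12.7, 12.5 and 12.6 TPM in WT cells.

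EIF2AK4 also rose with 991 in each of the 6 arms sampled to 24 h, at 8, 16 and 24 h. At 16 h the log2 difference was 0.59 ± 0.05 in TFEB+TFE3 WT (adjusted p = 1.6e-11), 0.42 in DKO, 0.32 in ESRRA WT, 0.47 in ESRRA KO, 0.45 in siControl and 0.35 in siPGC1a cells. In WT FNIP1 cells it went from 10.0, 9.54 and 10.0 TPM to 13.9, 13.8 and 13.9 TPM, a separation that did not pass with all libraries (0.45 ± 0.30, adjusted p = 0.38). Without the 2 SA5 libraries, whose spread enters the fit, the same difference had an adjusted p of 9.6e-08, and that in SA5 cells was 0.46 (adjusted p = 5.6e-07). With all libraries EIF2AK4 rose in 8 of 10 arms at 8 h and in 9 of 10 at 16 h, where the median share of all genes called upward was 31% and 37.4%.

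EIF2AK2, the double-stranded RNA kinase PKR, rose with CCCP, phenformin and rotenone at all 4 times in both AMPK arms. Phenformin exceeded CCCP in AMPK WT cells at 8 h (0.35, adjusted p = 1.7e-06) and 16 h (0.43, adjusted p = 6e-09), while at 2 h no pair of these 3 compounds differed past the threshold. In AMPK WT cells it went from 7.04, 8.36 and 7.64 TPM to 13.3, 13.6 and 14.01 TPM at 16 h of phenformin, without overlap (0.75 ± 0.06, adjusted p = 3.7e-18). The earlier phenformin differences were 0.20, 0.38 and 0.59 at 2, 4 and 8 h, and the one at 2 h was lost without replicate 3. The phenformin difference in AMPK KO cells was 0.52 at 2 h already and 0.70 ± 0.06 at 16 h (adjusted p = 1.7e-16). CCCP gave 0.32 in AMPK WT and 0.52 in AMPK KO cells at 16 h, and in WT cells it did not differ past the threshold from 991 at 8 h (adjusted p = 0.41) or 16 h (adjusted p = 0.8). The CCCP value at 8 h in WT cells, 0.23, was lost without replicate 1 (0.13, adjusted p = 0.087).

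With rotenone, EIF2AK2 rose in AMPK KO cells by 0.30 to 0.43 at the 4 times. In AMPK WT cells the rotenone differences were 0.25, 0.17, 0.16 and 0.15, and every one of these calls was lost without replicate 1 (0.10 to 0.14, adjusted p from 0.063 to 0.18). With 991 it rose at 8 and 16 h in both AMPK arms and at 4 h in KO cells, to 9.80, 9.64 and 9.41 TPM in WT cells at 16 h (0.29 ± 0.06, adjusted p = 3.5e-05). Outside the AMPK table it rose with 991 in TFEB+TFE3 WT cells at 8, 16 and 24 h (0.18, 0.25 and 0.19), in DKO cells at 16 h (0.22), in ESRRA KO cells at 8, 16 and 24 h (0.17, 0.16 and 0.19) and in siControl cells at 16 and 24 h (0.35 and 0.22). Of these calls that in ESRRA KO cells at 24 h alone (adjusted p = 0.0026) was kept in every alternative run. ESRRA WT cells at 2 h gave its one fall with 991, from 11.2, 10.6 and 12.1 TPM to 9.78, 10.4 and 9.30 TPM (-0.18, adjusted p = 0.0097), which was lost without replicate 1 (adjusted p = 0.1) or replicate 3 (-0.10, adjusted p = 0.38). With all libraries it also passed in SA5 cells at 16 h (0.84, adjusted p = 0.049), but in neither FNIP1 arm when the 2 SA5 libraries were left out.

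EIF2AK1, the kinase HRI that acts downstream of OMA1 and DELE1, moved by small amounts. Its largest log2 differences in the AMPK table were with phenformin at 16 h, from 48.5, 47.6 and 47.7 TPM to 60.01, 61.5 and 62.4 TPM in WT cells (0.35 ± 0.03, adjusted p = 7.5e-17). AMPK KO cells went from 46.3, 48.1 and 46.5 TPM to 65.4, 62.3 and 63.3 TPM (0.43 ± 0.03, adjusted p = 4.3e-21). These are means 1.28 and 1.36 times those of DMSO, without overlap. The libraries of one group lay close together, so differences of this size passed. CCCP raised EIF2AK1 steadily in AMPK WT cells, by 0.11, 0.17, 0.22 and 0.27 at 2, 4, 8 and 16 h. The CCCP differences in AMPK KO cells were 0.16, 0.15, 0.12 and 0.07, and the last was lost under median-ratio scaling (0.01, adjusted p = 0.85) and without replicate 3 (0.05, adjusted p = 0.33).

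The 991 differences of EIF2AK1 changed sign over time. At 4 h it fell in AMPK KO (-0.10), ESRRA KO (-0.15) and AMPK WT cells (-0.08, adjusted p = 0.036, with libraries that overlapped DMSO). At 16 h it rose by 0.20 ± 0.03 in AMPK WT cells (adjusted p = 8.5e-08, 55.4, 55.7 and 53.99 TPM) and by 0.14 in AMPK KO cells. At 24 h siControl cells were at 60.8, 60.9 and 60.96 TPM against 51.4, 48.3 and 49.9 TPM under DMSO (0.28 ± 0.03, adjusted p = 2.1e-08). The 24 h difference was 0.29 in siPGC1a, 0.27 in TFEB+TFE3 WT and 0.12 in DKO cells. The median of all genes at 24 h was 0.14 in siControl and siPGC1a, 0.12 in TFEB+TFE3 WT and 0.07 in DKO cells. Part of these 24 h values was therefore shared by all genes. At 16 h the calls in DKO, siControl, siPGC1a and both ESRRA arms were lost under median-ratio scaling, and in siControl and DKO cells the sign turned (-0.0045 and -0.0511). The AIMP2 transcript that shares exon bases with EIF2AK1 was at a like level, and its part in these small differences was not tested.

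**Figure D2:**
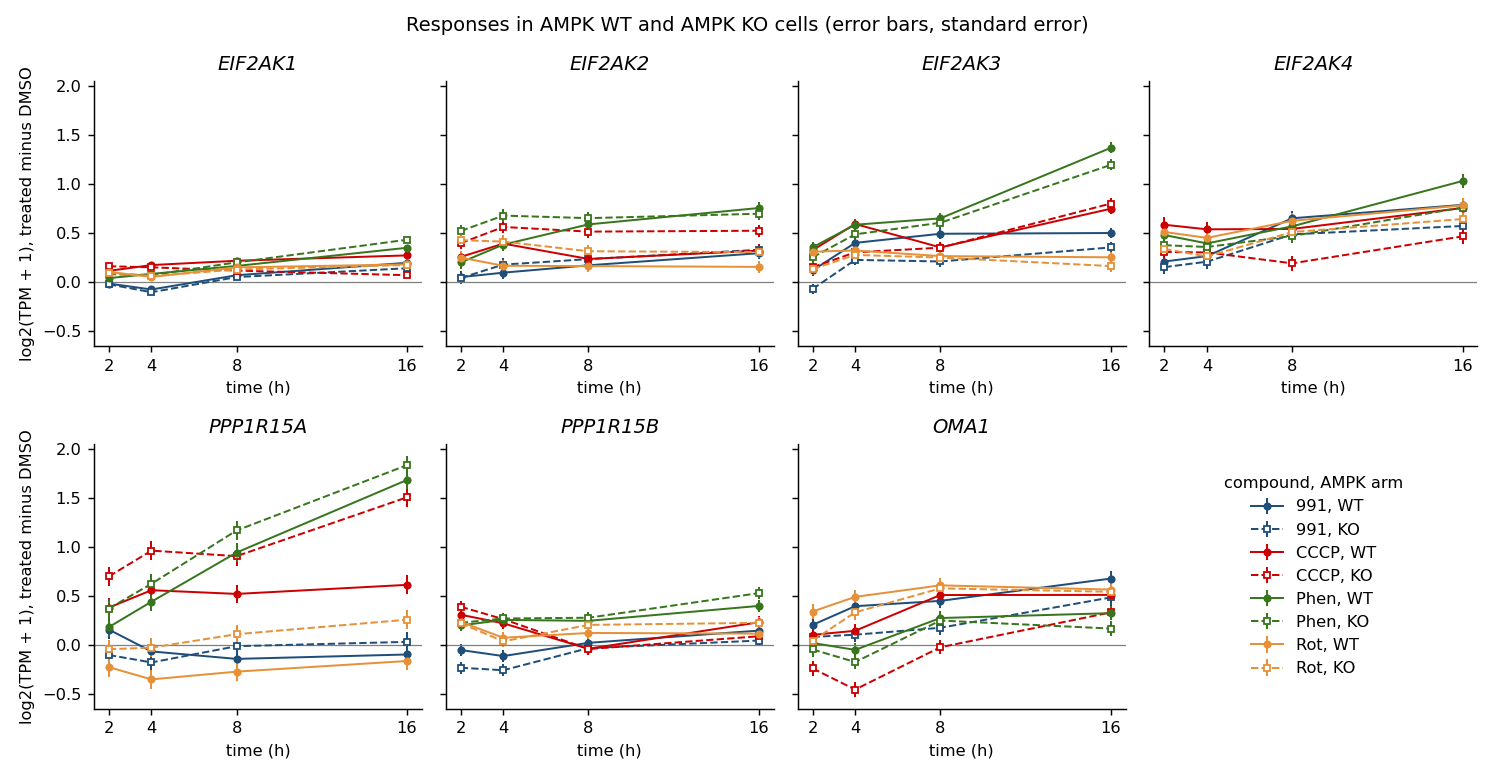
Treated minus DMSO of the same arm, in log2(TPM + 1), against time in AMPK WT (filled points, solid lines) and AMPK KO cells (open squares, dashed lines) for the 4 compounds; error bars are standard errors of the fit. EIF2AK3 and PPP1R15A reach their highest values with phenformin at 16 h (1.37 and 1.68 in WT cells), and the OMA1 course with CCCP runs below 0 in AMPK KO cells at 2 and 4 h.

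PPP1R15A, the stress-induced phosphatase subunit GADD34, showed the largest response of the 7 genes and the greatest contrast between compounds. After 16 h of phenformin AMPK WT cells were at 55.4, 57.5 and 58.4 TPM against 21.6, 14.7 and 15.7 TPM under DMSO. The groups did not overlap, and the mean TPM was 3.29-fold higher (1.68 ± 0.10, adjusted p = 1.3e-26). AMPK KO cells went from 15.8, 11.97 and 12.3 TPM to 52.95, 49.6 and 46.8 TPM, a 3.73-fold higher mean (1.83 ± 0.10, adjusted p = 1.3e-28). At 8 h the phenformin differences were 0.94 in WT and 1.16 in KO cells.

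With CCCP, PPP1R15A in AMPK WT cells was at 25.7, 25.7 and 25.4 TPM by 4 h and at 26.2, 27.5 and 26.3 TPM at 16 h, a plateau of 0.52 to 0.61 above DMSO. In AMPK KO cells it was at 27.9, 26.1 and 26.2 TPM at 4 h and at 39.2, 38.8 and 40.2 TPM at 16 h (1.5 ± 0.10, adjusted p = 2e-23). The WT value at 2 h, 0.38, was lost without replicate 2 (0.31, adjusted p = 0.052) or replicate 3 (0.30, adjusted p = 0.074).

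The other complex I inhibitor did not raise PPP1R15A in AMPK WT cells. With rotenone the libraries were at 12.5, 13.8 and 13.3 TPM at 4 h, below every DMSO library (-0.35 ± 0.10, adjusted p = 0.0011), and at 15.2, 15.3 and 14.9 TPM at 16 h (-0.17, adjusted p = 0.12). The falls at 2 h (-0.23) and 8 h (-0.28) were lost without replicate 1, whose DMSO library was high (-0.03, adjusted p = 0.69, and -0.13, adjusted p = 0.066). In AMPK KO cells rotenone gave 15.7, 16.3 and 16.0 TPM at 16 h (0.25, adjusted p = 0.017), which was lost without replicate 2 (0.17, adjusted p = 0.26) or replicate 3 (0.20, adjusted p = 0.21). With 991 the differences in the AMPK arms ran from -0.18 to 0.15, with adjusted p from 0.13 to 0.9. In WT cells replicate 1 was high with 991 also, at 2 h (26.2 against 16.3 and 16.5 TPM) and 4 h (21.1 against 14.7 and 13.8 TPM). This spread limits the test of 991 at these times. Under median-ratio scaling the WT value at 8 h passed (-0.24, adjusted p = 0.023).

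PPP1R15A did rise with 991 at some times in the ESRRA, siRNA and TFEB+TFE3 arms, and passed in neither FNIP1 arm with all libraries. In ESRRA KO cells it went from 17.8, 17.2 and 15.5 TPM to 29.1, 23.7 and 26.7 TPM at 2 h (0.62 ± 0.07, adjusted p = 2.2e-07) and was back at 17.7, 18.2 and 19.1 TPM at 4 h. ESRRA WT cells also peaked at 2 h (21.4, 20.6 and 18.97 TPM against 15.5, 13.4 and 13.2 TPM, 0.51 ± 0.07, adjusted p = 1.7e-05). In siControl cells the course was different, with 0.38 to 0.44 from 2 to 8 h and 34.1, 36.8 and 34.4 TPM at 16 h against 20.2, 22.8 and 20.3 TPM (0.71 ± 0.05, adjusted p = 9.3e-13). In TFEB+TFE3 WT cells it rose at 2 h (0.21), was within its spread of DMSO at 4 and 8 h (0.05 each) and rose again at 16 h (0.42 ± 0.04, adjusted p = 4e-09). DKO cells, which started at 50.98 ± 1.5 TPM, fell at 4 h, to 47.6, 44.4 and 49.4 TPM. They reached 60.3, 59.4 and 60.3 TPM at 16 h (0.23 ± 0.04, adjusted p = 0.0001). In WT FNIP1 cells PPP1R15A passed at 2 h only, without the 2 SA5 libraries (0.25, adjusted p = 0.0048). In SA5 cells its sign at 4 and 16 h turned with the scaling (0.05 each with all libraries).

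PPP1R15B, the constitutive phosphatase subunit CReP, fell with 991 at 4 h in most arms. TFEB+TFE3 WT cells went from 24.98, 27.6 and 27.01 TPM to 18.4, 20.4 and 19.8 TPM at 4 h, without overlap (-0.42 ± 0.06, adjusted p = 5.1e-07). ESRRA KO cells went from 27.03, 33.1 and 28.5 TPM to 20.6, 20.3 and 20.5 TPM (-0.50 ± 0.05, adjusted p = 2.5e-09). The 4 h difference was -0.32 in DKO, -0.30 in ESRRA WT, -0.20 in siControl, -0.34 in siPGC1a and -0.26 in AMPK KO cells, all passing, and -0.12 in AMPK WT cells, which did not pass (adjusted p = 0.11). PPP1R15B thus fell in 7 of 10 arms at 4 h, where between 3.66% and 20% of all genes were called downward. Without the 2 SA5 libraries it also fell at all 4 times in both FNIP1 arms, by 0.47 in WT FNIP1 and 0.51 in SA5 cells at 4 h (adjusted p = 6.3e-07 and 1.4e-06).

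The later course of PPP1R15B differed by arm. In TFEB+TFE3 WT cells it was still down at 24 h (-0.26 ± 0.06, adjusted p = 0.00027). In siControl cells the 24 h value was above DMSO, at 22.9, 22.4 and 21.4 TPM against 20.3, 19.7 and 18.4 TPM (0.18 ± 0.05, adjusted p = 0.0057). The median of all genes in that comparison was 0.14, so much of this value was shared by all genes. At 16 h the sign of PPP1R15B in siControl cells turned under median-ratio scaling (-0.0596). With the mitochondrial inhibitors in the AMPK arms PPP1R15B rose at 2 h, by 0.31 with CCCP, 0.20 with phenformin and 0.23 with rotenone in WT cells. At 16 h of phenformin it was at 22.2, 22.6 and 21.9 TPM against 17.4, 16.2 and 16.5 TPM in WT cells (0.40 ± 0.06, adjusted p = 1.5e-08) and 0.53 above DMSO in KO cells.

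OMA1, the inner membrane protease, rose with 991 from 4 h onward in nearly every arm. AMPK WT cells went from 15.5, 16.2 and 17.4 TPM to 27.8, 26.3 and 25.9 TPM at 16 h, a 1.63-fold higher mean without overlap (0.67 ± 0.07, adjusted p = 1.2e-12). The differences at 4 and 8 h were 0.39 and 0.45, and the value at 2 h (0.20, adjusted p = 0.046) had libraries that overlapped DMSO. In AMPK KO cells it was 0.08 and 0.10 at 2 and 4 h, neither passing, 0.17 at 8 h, lost without replicate 3 (0.11, adjusted p = 0.37), and 0.48 ± 0.07 at 16 h (adjusted p = 5.7e-08). By 16 h the KO libraries were at 22.5, 21.2 and 21.4 TPM against 13.3, 16.5 and 16.1 TPM under DMSO.

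In WT FNIP1 cells OMA1 went from 9.35, 8.31 and 10.5 TPM to 16.0, 17.8 and 15.8 TPM at 8 h (0.76 ± 0.19, adjusted p = 0.0055). Without the 2 SA5 libraries the 4, 8 and 16 h differences were 0.63, 0.76 and 0.68 in WT FNIP1 and 0.59, 0.81 and 0.76 in SA5 cells, all passing. In TFEB+TFE3 WT cells OMA1 peaked at 8 h, at 27.4, 25.1 and 27.1 TPM against 18.3, 17.9 and 18.1 TPM (0.53 ± 0.05, adjusted p = 1.2e-09). DKO cells were at 20.1, 20.4 and 19.2 TPM at 8 h against 17.9, 16.3 and 17.7 TPM (0.19, adjusted p = 0.0029), which was lost under median-ratio scaling (0.08, adjusted p = 0.17). Both ESRRA arms fell first, at 2 h (-0.16 in WT and -0.19 in KO), and were up by 0.39 and 0.40 at 4 h. In siControl and siPGC1a cells the 4 to 24 h differences were 0.45 to 0.58 and 0.45 to 0.51. OMA1 rose in 9 of 10 arms at 4 h, in all 10 at 8 and 16 h and in all 6 at 24 h, against 14.6% to 34.8% of all genes called upward at 4 h, 13.9% to 41.3% at 8 h, 11.6% to 44.6% at 16 h and 24.2% to 39.8% at 24 h.

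**Figure D3:**
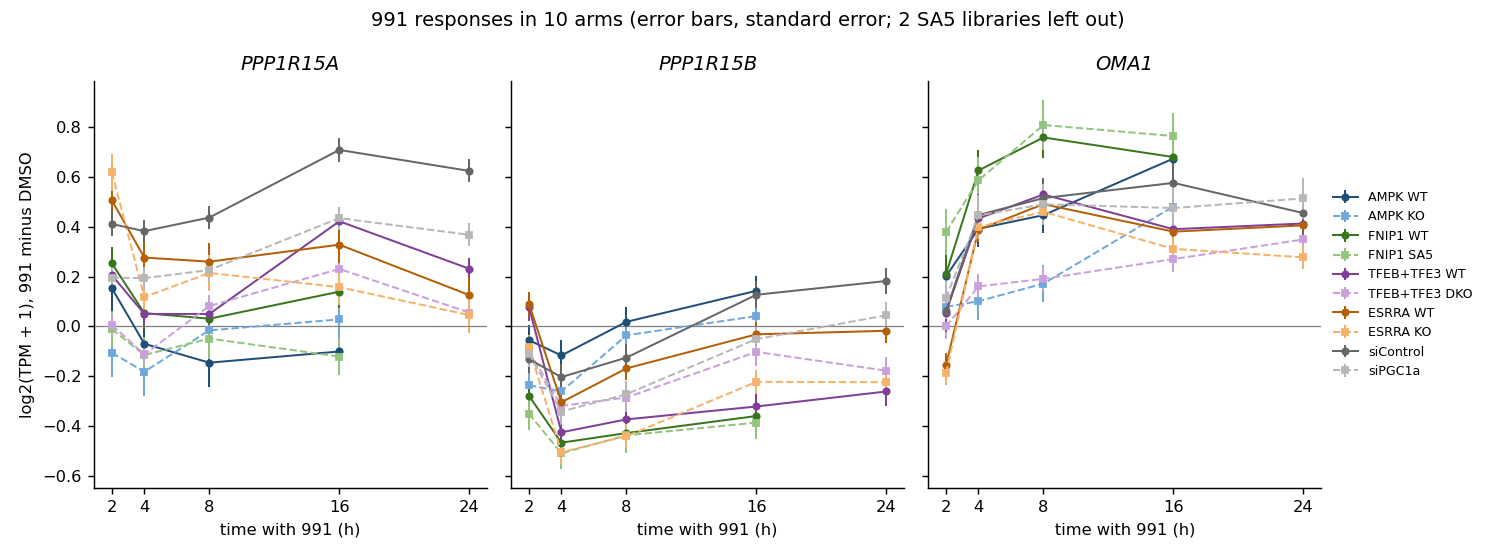
991 minus DMSO of the same arm, in log2(TPM + 1), against time for PPP1R15A, PPP1R15B and OMA1 in 10 arms; error bars are standard errors, and the FNIP1 arms are shown without the 2 SA5 libraries that stood apart. OMA1 lies above 0 in all arms from 4 h, PPP1R15B is lowest at 4 h in most arms, and PPP1R15A is highest at 16 h in siControl cells (0.71).

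Rotenone raised OMA1 early and with a plateau. AMPK WT cells were at 21.04, 21.2 and 20.5 TPM at 2 h (0.34 ± 0.07, adjusted p = 9.8e-05) and at 24.8, 25.9 and 25.4 TPM at 8 h (0.60 ± 0.07, adjusted p = 1e-10). The rotenone differences in AMPK KO cells were 0.04, 0.33, 0.57 and 0.54 at 2, 4, 8 and 16 h. Phenformin gave less, 0.27 and 0.32 at 8 and 16 h in WT cells. In KO cells its values were -0.18 at 4 h, 0.25 at 8 h and 0.16 at 16 h, and the last of these was lost under median-ratio scaling (0.14, adjusted p = 0.064). CCCP is described with the arms' differences below.

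Whether AMPK changed a response was tested as the KO response minus the WT response. With CCCP, 11 of 28 such tests of the 7 genes passed (4 above and 7 below 0, or 6 and 5 under median-ratio scaling) against 21.5% of all gene tests. With 991, 2 of 28 passed against 12.8%, and with phenformin 2 of 28 against 5.75%. With rotenone limma called none of 28 against 1.36% of all gene tests, and 7 had an unadjusted p under 0.05. Of these 15 calls, 3 kept their side of the threshold in every alternative run: OMA1 with CCCP at 4 and 8 h and PPP1R15A with CCCP at 16 h.

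OMA1 fell with CCCP in AMPK KO cells, from 13.3, 16.5 and 16.1 TPM to 9.34, 11.2 and 12.2 TPM at 4 h (-0.46 ± 0.07, adjusted p = 1.3e-07). AMPK WT cells held 17.98, 18.2 and 18.2 TPM at 4 h (0.14, adjusted p = 0.086). The KO minus WT difference was -0.60 ± 0.10 (adjusted p = 5.9e-06), where 27.6% of all genes were called. At 8 h WT cells had risen to 24.6, 23.1 and 23.2 TPM (0.51 ± 0.07) while KO cells, at 15.3, 15.2 and 14.4 TPM, were within their spread of DMSO. The difference at 8 h was -0.53 ± 0.10 (adjusted p = 7.9e-05). At 16 h KO cells had also risen, to 19.3, 19.3 and 19.6 TPM (0.33, adjusted p = 6.8e-05), still below the WT libraries at 22.5, 24.7 and 23.8 TPM, and the difference was -0.18 (adjusted p = 0.2). DMSO levels of OMA1 overlapped between the arms.

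PPP1R15A went the other way. At 16 h of CCCP the KO libraries were at 39.2, 38.8 and 40.2 TPM and the WT libraries at 26.2, 27.5 and 26.3 TPM, without overlap, and the difference of the responses was 0.89 ± 0.14 (adjusted p = 3.3e-07), where 28.2% of all genes were called. At 4 and 8 h the differences were 0.40 (adjusted p = 0.019) and 0.39 (adjusted p = 0.031), and the DMSO mean was lower in KO cells (13.4 against 17.4 TPM). Treated KO libraries lay just above the WT libraries at 4 h and overlapped them at 8 h (26.2, 25.3 and 25.4 TPM against 24.9, 23.9 and 26.1 TPM). Without replicate 2 both were lost (adjusted p = 0.097 and 0.18). The DMSO level of PPP1R15A in AMPK WT cells includes the high replicate 1, and its 16 h difference passed without each replicate in turn.

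EIF2AK1 with CCCP at 16 h was lower in KO than in WT cells (49.1, 48.6 and 50.2 against 57.7, 58.1 and 58.4 TPM), with a difference of the responses of -0.20 ± 0.04 (adjusted p = 0.00026). Without replicate 2 it was -0.17 (adjusted p = 0.052). EIF2AK4 gave -0.35 at 8 h and -0.29 at 16 h. Its treated libraries overlapped between the arms at both times, and its DMSO mean was higher in KO cells (8.88 against 7.09 TPM). Both were lost without replicate 3 (-0.32, adjusted p = 0.27, and -0.28, adjusted p = 0.31). EIF2AK3 gave -0.29 at 4 h, lost without replicate 2 (-0.26, adjusted p = 0.13), and EIF2AK2 gave 0.28 at 8 h, lost without replicate 2 (0.24, adjusted p = 0.23). OMA1 at 2 h gave -0.34, also lost without replicate 2 (-0.27, adjusted p = 0.43).

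**Figure D4:**
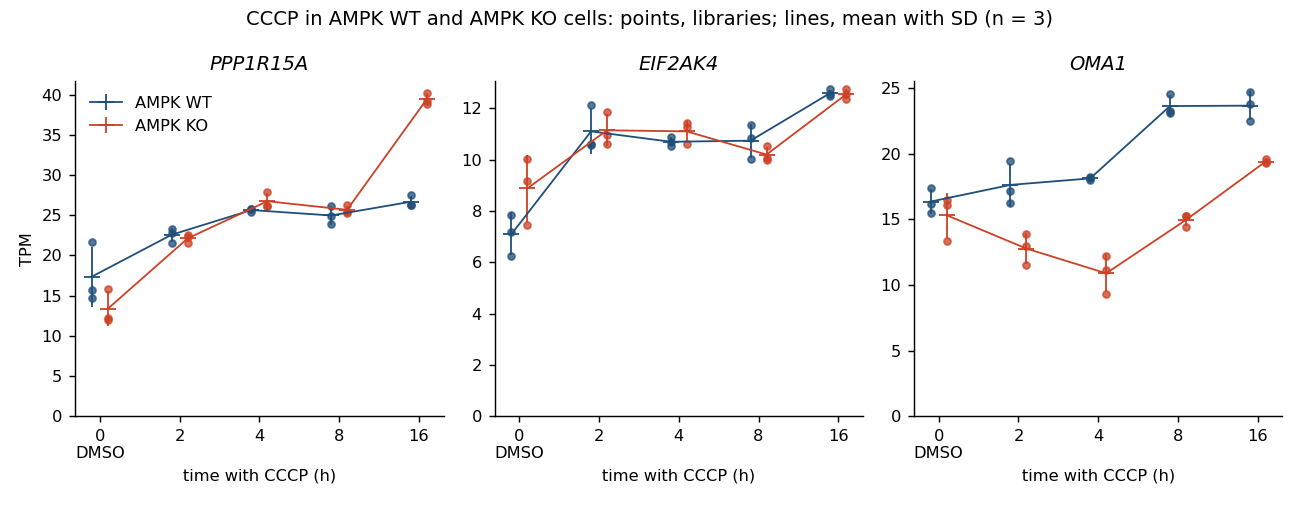
TPM of PPP1R15A, EIF2AK4 and OMA1 in AMPK WT and AMPK KO cells under DMSO and after 2, 4, 8 and 16 h of CCCP; points are libraries, lines join means, bars are the SD (n = 3), and the time axis is not to scale. The arms lie far apart for PPP1R15A at 16 h (39.4 against 26.7 TPM), OMA1 libraries of AMPK KO cells lie below those of WT cells at all 4 times of CCCP, and treated EIF2AK4 levels overlap at every time.

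For the other arms, the 991 response of the altered arm minus that of its control was tested. DKO minus WT differences passed in 6 of 35 tests, all below 0 (1 above and 4 below under median-ratio scaling), against 9.24% of all gene tests. Those at an unadjusted p under 0.05 in limma numbered 17 for DKO minus WT and 12 for ESRRA KO minus ESRRA WT. The 6 calls are listed next. They were OMA1 at 4 h (-0.27, adjusted p = 0.026) and 8 h (-0.34 ± 0.07, adjusted p = 0.0024), EIF2AK1 at 16 and 24 h (-0.14 and -0.15), EIF2AK4 at 24 h (-0.24) and PPP1R15A at 16 h (-0.19). None of the 6 kept its call without each replicate in turn. That of OMA1 at 8 h was lost without replicate 3 (-0.28, adjusted p = 0.095) and that of EIF2AK4 without replicate 1 (adjusted p = 0.15) or 3 (-0.16, adjusted p = 0.24). Those of EIF2AK1, of PPP1R15A and of OMA1 at 4 h were lost whichever replicate was left out (adjusted p from 0.081 to 0.3). ESRRA KO minus ESRRA WT passed in 2 of 35 against 2.47%, EIF2AK2 at 24 h (0.28, adjusted p = 0.039) and PPP1R15B at 8 h (-0.27, adjusted p = 0.037), and no call remained without replicate 1, 2 or 3. For siPGC1a minus siControl limma called none of 35 against 0.0642% of all gene tests, with 8 at an unadjusted p under 0.05. For SA5 minus WT FNIP1 limma called none of 28 against 0.00751%, with none at an unadjusted p under 0.05. None passed without the 2 SA5 libraries either, against 0.0394% of all gene tests. In the siRNA and FNIP1 comparisons almost no gene passed, so the absence of calls cannot show unchanged responses.

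Under DMSO, 16 of 35 comparisons of an altered arm with its control passed over the 5 tables (10 higher and 6 lower, or 8 and 7 under median-ratio scaling) against 29.4% of all gene tests. PPP1R15A passed in every table. It was highest in DKO cells, at 50.2, 52.8 and 50 TPM against 22.1, 22.6 and 22.9 TPM in their WT arm, a 2.27-fold higher mean without overlap (1.14 ± 0.04, adjusted p = 7e-18), where 51.3% of all genes were called. In siPGC1a cells it was at 36.3, 35.7 and 34.2 TPM against 20.2, 22.8 and 20.3 TPM in siControl, also apart (0.72 ± 0.05, adjusted p = 1.4e-12), where 24.2% were called. FNIP1 was at 223 to 290 TPM in siPGC1a against 129 to 179 TPM in siControl libraries, and its part in the result was not tested.

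The other 3 differences of PPP1R15A were smaller and each lost its call in an alternative. They were -0.35 ± 0.10 in AMPK KO (adjusted p = 0.0025, and 0.057 without replicate 3), 0.25 ± 0.07 in ESRRA KO (adjusted p = 0.015, and 0.19 without replicate 2) and -0.46 ± 0.10 in SA5 cells (adjusted p = 0.011). Without the 2 SA5 libraries the last was -0.29 (adjusted p = 0.0093), and under median-ratio scaling it was -0.07 (adjusted p = 0.63). EIF2AK3 was higher in DKO cells, at 6.95, 6.51 and 6.83 TPM against 5.09, 5.48 and 5.02 TPM (0.33 ± 0.07, adjusted p = 0.00025). It was also higher in AMPK KO (0.15, adjusted p = 0.021) and ESRRA KO cells (0.18, adjusted p = 0.038), and the AMPK KO libraries overlapped those of AMPK WT cells. EIF2AK4 was higher in AMPK KO (0.28, adjusted p = 0.0016) and DKO cells (0.21, adjusted p = 0.00057, and 0.17 under median-ratio scaling). Its libraries also overlapped between AMPK KO and AMPK WT cells. EIF2AK2 was lower in AMPK KO (-0.16) and ESRRA KO (-0.18) and higher in DKO cells (0.22), and each lost its call in an alternative.

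PPP1R15B under DMSO was lower in AMPK KO cells, at 13.6, 14.8 and 14.6 TPM against 17.4, 16.2 and 16.5 TPM (-0.21 ± 0.06, adjusted p = 0.0041, and 0.058 without replicate 3). It was higher in ESRRA KO cells (0.17, adjusted p = 0.014, and 0.18 without replicate 2). OMA1 was lower in siPGC1a cells, at 8.73, 8.22 and 8.57 TPM against 10.98, 9.02 and 11.52 TPM (-0.27 ± 0.08, adjusted p = 0.017), which was lost without replicate 1 (-0.25, adjusted p = 0.15). EIF2AK1 did not pass in any table under DMSO, with adjusted p from 0.069 to 0.86.

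Compounds were compared with each other at the same time in AMPK WT cells, 6 pairs at 4 times, although their doses are not given and need not match in strength. Of 168 tests of the 7 genes 100 passed, 62 above and 38 below 0, against 42.8% of all gene tests. PPP1R15A passed in 19 of 24 pair comparisons, EIF2AK3 in 18, EIF2AK1, EIF2AK2 and OMA1 in 14 each, PPP1R15B in 13 and EIF2AK4 in 8. Phenformin minus 991 passed in 24 of 28 tests, CCCP minus 991 and rotenone minus phenformin in 18 each, and the other 3 pairs in 13 or 14. The share of all gene tests is given for the pairs together only, so this order is not read as a result about the 7 genes. At 16 h the complex I inhibitors were far apart: PPP1R15A with rotenone differed from phenformin by -1.85 ± 0.10 (adjusted p = 1.6e-28), and EIF2AK3 by -1.12 (adjusted p = 1.9e-29). OMA1 was the exception in direction, higher with rotenone than with phenformin (0.24, adjusted p = 0.0029).

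Phenformin also exceeded CCCP at 16 h for PPP1R15A (1.07, adjusted p = 2.1e-16) and EIF2AK3 (0.62, adjusted p = 2.4e-16). Phenformin exceeded 991 for PPP1R15A (1.78 ± 0.10, adjusted p = 1.4e-27), EIF2AK3 (0.87), EIF2AK2 (0.46), PPP1R15B (0.25), EIF2AK4 (0.24) and EIF2AK1 (0.15), while OMA1 was lower with phenformin (-0.35 ± 0.07, adjusted p = 1.9e-05). Rotenone and 991 did not differ past the threshold at 16 h for PPP1R15A (-0.07 ± 0.10, adjusted p = 0.66) or OMA1 (-0.11 ± 0.07, adjusted p = 0.27).

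**Figure D5:**
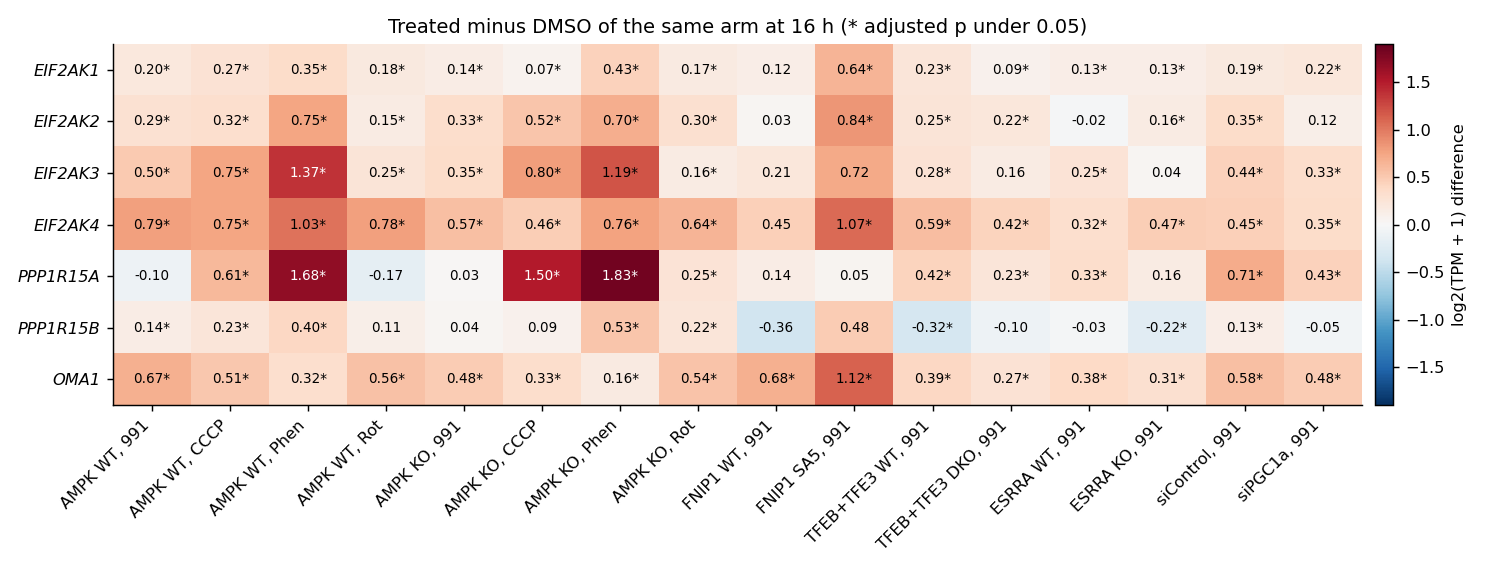
Treated minus DMSO of the same arm at 16 h, in log2(TPM + 1), for the 7 genes (vertical) in 16 arm and compound combinations (horizontal), with all libraries; an asterisk marks an adjusted p under 0.05 and colour gives sign and size. EIF2AK4 passes in 15 and OMA1 in 16 of the 16 columns. Over the 10 arms with 991, 11.6% to 44.6% of all genes were called upward at 16 h. Shares for the other columns are given in the text with the stress response targets. PPP1R15A ranges from -0.17 to 1.83. The SA5 column rests on the DMSO library that stood apart. EIF2AK4 was at 2.171 TPM in it against 11.32 and 9.559 TPM in the other SA5 DMSO libraries. OMA1 was at 4.502 TPM against 11.626 and 9.483 TPM.

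Of 16 stress response targets downstream of eIF2 alpha, a list that includes ATF4 and many genes it is known to activate, 15 rose and 1 fell with phenformin at 16 h in AMPK WT cells, with a median log2 difference of 2.28, where 45.3% of all genes rose, 34.9% fell and the median of all genes was 0.07. With CCCP 14 rose (median 1.66, 44.1% of all genes rose), with rotenone 13 (1.15, 36.2%) and with 991 14 (1.00, 41.9%). In AMPK KO cells 15 rose with CCCP (median 2.12, 39.6% of all genes rose), 15 with phenformin (2.14, 41.2%), 15 with rotenone (1.25, 35.3%) and 14 with 991 (1.27, 34.8%). DDIT3, the transcription factor CHOP that is known to activate PPP1R15A, went from 6.80 to 148 TPM with phenformin in WT cells (4.25 ± 0.08, adjusted p = 5.4e-56) and from 6.03 to 106 TPM in KO cells (3.93). With 991 in WT cells NUPR1, a stress-induced chromatin protein, reached 11.2 TPM from 1.12 TPM (2.54), and ASNS, asparagine synthetase, reached 184 TPM from 74.7 TPM (1.29).

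ATF4 itself rose with all 4 compounds at 16 h in AMPK WT cells, by 1.00 with 991, 1.12 with CCCP, 0.87 with phenformin and 1.11 with rotenone. Phenformin was below CCCP (-0.25, adjusted p = 0.00051) and rotenone was above phenformin (0.23, adjusted p = 0.001), and the other 4 pairs did not pass (adjusted p from 0.071 to 0.89). ATF5, a related factor, fell with all 4 in WT cells, by 0.79 with 991 and 0.67 with phenformin, and in KO cells its phenformin value was -0.11 (adjusted p = 0.17). In the other arms at 16 h of 991, ATF4 rose by 0.58 in ESRRA WT, 0.33 in ESRRA KO, 0.47 in TFEB+TFE3 WT, 0.29 in DKO, 0.30 in siControl and 0.14 in siPGC1a cells. With all libraries it was -0.08 in WT FNIP1 (adjusted p = 0.52) and -0.02 in SA5 cells (adjusted p = 0.82), and without the 2 SA5 libraries -0.08 (adjusted p = 0.066) and 0.08 (adjusted p = 0.099). Earlier, and without the 2 SA5 libraries, ATF4 fell in both FNIP1 arms. Its differences at 2 and 4 h were -0.72 and -0.82 in WT FNIP1 cells and -0.62 and -0.65 in SA5 cells. The 2 and 4 h values of ATF4 in the other arms are not given here, so these falls are not read as particular to the FNIP1 arms.

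Of the 16 targets at 16 h of 991, 15 rose in ESRRA WT cells (median 0.67), where 31.2% of all genes rose, and 7 rose and 6 fell in ESRRA KO cells (0.22), where 31.5% of all genes rose and 12.9% fell. In TFEB+TFE3 WT cells 15 rose (1.05, 41.1% of all genes) and in DKO cells 15 (0.60, 35.7%), and 14 rose in siControl (0.55, 44.6%) and in siPGC1a cells (0.52, 39.2%). With all libraries 8 rose and 1 fell in WT FNIP1 cells (0.27, where 11.6% of all genes rose and 4.87% fell) and 12 rose and 1 fell in SA5 cells (0.70, 39.2% and 5.76%). Without the 2 SA5 libraries 10 rose and 1 fell in WT FNIP1 cells (34.2% and 19.5% of all genes) and 12 rose and 1 fell in SA5 cells (0.66, 34.5% and 14.7%). DDIT3 under DMSO was higher in DKO (19.3 against 6.95 TPM, 1.36, adjusted p = 3.7e-12) and siPGC1a cells (24.9 against 13.6 TPM, 0.83, adjusted p = 2.1e-08), the arms where PPP1R15A was highest. DDIT3 is not given for the other DMSO comparisons, and its part in the PPP1R15A levels was not tested.

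Of the 8 subunits of eIF2 and its exchange factor eIF2B, 2 rose and 6 fell with phenformin at 16 h in AMPK WT cells (median -0.35), where 45.3% of all genes rose and 34.9% fell. With 991, 2 rose and 4 fell (median -0.16), where 41.9% of all genes rose and 26.9% fell. EIF2B1, the alpha subunit of eIF2B, fell with every compound in both AMPK arms, from 85.03 to 53.62 TPM with phenformin in WT cells (-0.66 ± 0.03, adjusted p = 2.3e-32). EIF2S1, which encodes eIF2 alpha, fell by 0.50 with phenformin (22.6 against 32.3 TPM), while EIF2S2, the beta subunit, rose with CCCP (0.50, adjusted p = 4e-13). Of 8 kinase regulators 4 rose and 2 fell with phenformin and with CCCP, and 3 rose and 3 fell with 991, shares near those of all genes (44.1% rose and 26.6% fell with CCCP). NCK1, an adaptor, rose by 0.65 with phenformin, DNAJC3, an inhibitor of EIF2AK2 and EIF2AK3, by 0.46, and IMPACT, an inhibitor of EIF2AK4, rose by 0.68 with CCCP (adjusted p = 2.9e-15). HSPA5, the chaperone BiP that holds EIF2AK3 inactive, fell with 991 (135 against 179 TPM, -0.40, adjusted p = 5.7e-09).

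The catalytic subunit PPP1CA fell with all 4 compounds at 16 h in AMPK WT cells, by 0.27 to 0.36, and PPP1CC rose with phenformin (0.41) and rotenone (0.24), so 1 of 3 rose and 1 of 3 fell with each of these. Of 9 OMA1 partners and inner membrane quality control genes, 5 rose and 3 fell with 991 (41.9% of all genes rose and 26.9% fell), 4 rose and 3 fell with CCCP (44.1% and 26.6%), 5 rose and 2 fell with rotenone (36.2% and 29.2%), and 2 rose and 5 fell with phenformin (45.3% and 34.9%). KIAA0141, which encodes DELE1, rose with 991 (0.37 ± 0.06, adjusted p = 1.9e-08, 10.97 against 8.258 TPM), CCCP (0.47) and rotenone (0.24), and was -0.04 (adjusted p = 0.51) with phenformin in WT and -0.25 (adjusted p = 4.4e-05) in KO cells. OPA1, the fusion protein that OMA1 cleaves, rose with rotenone (0.35, adjusted p = 2.3e-07). The prohibitin PHB fell with CCCP (-0.36) and phenformin (-0.40). Of the cell line markers tested in these cells, 5 of 5 rose with phenformin (45.3% of all genes rose), VIM by 0.55, and COL1A1 fell with CCCP (-0.63) and rotenone (-0.66), and their part in the results was not tested.

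Over the 34 group means of the AMPK table, the gene most like PPP1R15A was CCNB1IP1 (Pearson r = 0.955), then ZFAS1 (0.949) and GADD45A (0.94). For EIF2AK3 they were JADE3 (0.921), IGF2R (0.912) and MFF (0.907), for EIF2AK4 PWWP2B (0.924), SRC and NGLY1 (0.908 each), and for EIF2AK2 RBM18 (0.932), BRAF (0.928) and SMAD2 (0.922). For EIF2AK1 they were TAX1BP1 (0.91), STX8 (0.898) and ATP2C1 (0.885), for PPP1R15B PPP4R2 (0.909), CERS6 (0.901) and PPM1L (0.897), and for OMA1 FAM172A (0.931), RBL2 (0.929) and RPGR (0.924). Among the 7 genes the closest pair was EIF2AK3 with PPP1R15A (0.814), followed by EIF2AK2 with EIF2AK3 (0.812). OMA1 stood apart, with a highest r of 0.286, to EIF2AK1. These correlations describe groups that share DMSO controls, a table and a scaling, and have no p-value.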

How the data were processed

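The authors deposited 5 tables of TPM, 1 per arm pair, made per the submitters' processing notes with FastQC, STAR and HOMER on GRCh38; versions, strandedness and filters are not given in the sources used here. The tables name no mitochondrially encoded gene and keep no counts, so depth is unknown. Groups came from the GEO labels, with 0 columns unmapped. Each table was fitted alone with limma 3.58.1 in R 4.3.3 (eBayes with a mean trend) on log2(TPM + 1), with 1 mean per group and contrasts, after a filter that kept genes with a TPM of 1 or above in 3 or more libraries (13317 to 13746 genes). This scale understates changes of low genes. P-values were adjusted by Benjamini-Hochberg per contrast over all genes tested, for 134 contrasts, and the fit was tested on simulated data. Python 3.11.15 with pandas 2.3.3 and matplotlib 3.10.9 read promoters and drew figures.

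All 7 genes were named in every contrast. From each pathway list came the 16 h counts, up to 3 genes by smallest adjusted p, and ATF4, ATF5, DDIT3 and KIAA0141. For likeness, the 3 highest Pearson r were taken. The 7 genes and the lists were chosen with earlier results of these data known. Alternatives were 2 other scalings (median-ratio and quantile), a pseudocount of 0.1, no filter, each replicate left out, a block for replicate number and a fit of the compared groups alone. Leaving out the SA5 libraries that stood apart was added after seeing the data.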

Additional observations from a re-analysis of the deposited data

Results flagged for a closer look

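The differences between arms in the response to a compound that passed limma's test are collected here, as log2 differences of altered minus control arm. With CCCP in AMPK KO against AMPK WT cells they were EIF2AK1 at 16 h (-0.20, adjusted p = 0.00026), EIF2AK2 at 8 h (0.28, 0.017), EIF2AK3 at 4 h (-0.29, 0.0034), and EIF2AK4 at 8 h (-0.35, 0.012) and 16 h (-0.29, 0.033). OMA1 differed at 2 h (-0.34, 0.026), 4 h (-0.60, 5.9e-06) and 8 h (-0.53, 7.9e-05), and PPP1R15A at 4 h (0.40, 0.019), 8 h (0.39, 0.031) and 16 h (0.89, 3.3e-07). With 991 in the same cells they were EIF2AK3 (-0.28, adjusted p = 0.0063) and OMA1 (-0.27, 0.049), both at 8 h, and with phenformin EIF2AK2 at 2 h (0.32, 0.048) and 4 h (0.30, 0.044). With 991 in DKO against TFEB+TFE3 WT cells they were EIF2AK1 at 16 h (-0.14, 0.017) and 24 h (-0.15, 0.012), EIF2AK4 at 24 h (-0.24, 0.013), OMA1 at 4 h (-0.27, 0.026) and 8 h (-0.34, 0.0024) and PPP1R15A at 16 h (-0.19, 0.043). In ESRRA KO against ESRRA WT cells they were EIF2AK2 at 24 h (0.28, 0.039) and PPP1R15B at 8 h (-0.27, 0.037). With 3 libraries a group, no single library was tested as an outlier.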

How the results depend on the processing

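Of 455 calls among 938 tests of the 7 genes, 452 kept call and direction with a pseudocount of 0.1, 388 under median-ratio scaling, 397 under quantile normalization, 434 with no filter and 344 when only the compared groups were fitted. Leaving out replicate 1, 2 or 3 kept 394, 353 and 328. The unknown depth and 3 libraries a group limit small differences.

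Counts of passing tests moved as follows. Except without both SA5 libraries, the share of all gene tests that passed in these runs is not given. The counts are therefore not read as results about the 7 genes. With only the compared groups fitted, 991 gave 7 in AMPK KO, 11 in AMPK WT, 0 in SA5 and 13 in WT FNIP1 cells. The differences between arms then gave 0 for 991 in the AMPK and ESRRA tables, 3 in the TFEB+TFE3 table, 4 for CCCP and 0 for phenformin, and the DMSO comparisons gave 6. Leaving out each replicate gave 10 to 17 for 991 in AMPK WT, 3 to 13 in SA5 and 0 to 11 in WT FNIP1 cells. For differences it gave 0 to 8 (991, AMPK), 0 to 0 (ESRRA), 0 to 2 (TFEB+TFE3), 4 to 16 (CCCP), 0 to 3 (phenformin) and 0 to 4 (rotenone), and for DMSO comparisons 5 to 10. The AMPK 991 difference gave 1 with a pseudocount of 0.1, no filter or either other scaling, and the phenformin difference gave 0 with no filter. Without SA5 DMSO replicate 1, WT FNIP1 cells gave 7, and without both SA5 libraries 13, with 14 in SA5 cells. The cause was not tested, beyond there being fewer libraries in a fit.

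These values changed sign. Under median-ratio scaling, EIF2AK1 with 991 gave -0.0342 in AMPK WT, -0.0836 in TFEB+TFE3 WT and -0.0212 in siPGC1a cells at 8 h, -0.0511 in DKO and -0.0045 in siControl cells at 16 h and -0.1374 in siControl cells at 4 h. PPP1R15B gave -0.0596 in siControl cells at 16 h and -0.1341 for untreated DKO minus WT. PPP1R15A in SA5 cells at 4 and 16 h gave -0.3949 and -0.4051, and under quantile normalization -0.2543 and -0.2833. PPP1R15B in SA5 cells at 2, 4, 8 and 16 h gave -0.3879, -0.4654, -0.4368 and -0.4035 without replicate 1, -0.3501, -0.5087, -0.4368 and -0.3858 without both SA5 libraries, and -0.8344 at 8 h without SA5 DMSO replicate 1 alone. Without replicate 2 they were 0.9737, 0.8002, 0.2823 and 1.0131.

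The labels do not say that a replicate number marks a shared culture or day, and correlations of deviations passed 0.1 in 582 of 1683 same-numbered pairs in the AMPK table and 2 to 20 in the others, so numbers were not taken to pair libraries. The median was 0.051 for the same number against -0.024 otherwise in the AMPK table, and 0.004 to 0.011 for the same number in the others. Libraries that correlated best with their own number made up 73.5% of the AMPK table, a hint from the data and not from the design, and 44.4% to 58.3% of the others. With the replicate block, 453 of 455 calls were kept.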
